A study of Mus musculus with 36 samples.

Results

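Keratin and keratin-associated genes were examined for where they lie in the replication timing (RT) programme of mouse cells. RT is the time within S phase at which a stretch of DNA is copied. Members were the autosomal protein-coding genes whose symbol is Krt followed by a number or starts with Krtap. There were 97 of them among 21418 autosomal protein-coding genes, 51 Krt and 46 Krtap, and the state of each was read at its annotated start. The series held 36 Repli-seq libraries in 7 groups, in which the nascent DNA of BrdU-labelled B cells was sequenced after sorting by early or late S phase. The values below come from 3 domain maps, which assign 20 kb bins of the mm9 genome to 1 of 3 replication states, early (E), middle (M) or late (L). The first map is of CH12, a B cell line from a mouse lymphoma, with intact *Rif1*. These cells had been infected with a lentivirus expressing a short hairpin RNA against LacZ (shLacZ), the control for infection, and selected with puromycin. The labels give IL4, CD40 and TGF beta stimulation for their culture. CH12 is a single transformed line. The second is of wild-type (WT) primary B cells from mouse spleen, activated in culture, and the labels do not give the age or strain of the mice. Each of these maps rests on 4 libraries, 2 replicates of the early and of the late fraction. The third is named for WT mouse embryonic fibroblasts (MEFs), and the labels tie it to no sample, so the number of libraries behind it is not known here. Groups with *Rif1* deletion or *Mcm6* depletion were not analysed here.

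The authors merged replicates ahead of state calling and deposited 1 map for each condition. States and domain limits therefore carry no replicate error, no test between maps was made, and all differences below are descriptions. Read depth is not known from the maps. Neighbouring members share domains and are not independent, so Wilson 95% intervals cover counting over genes only.

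Keratins are the intermediate filament proteins of epithelial cells. Type I keratins, which are acidic, pair with type II keratins, which are basic, to form the filament, and each kind of epithelium makes its own pairs. Keratin-associated proteins are small proteins, many rich in cysteine or in glycine and tyrosine, that surround and crosslink keratin filaments in the hair shaft. B cells and fibroblasts are not the cells known for making hair or epidermal keratins, and expression was not measured here.

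The members fell into 3 large clusters that held 92 of the 97 genes, where a cluster joins members less than 1 Mb apart. The cluster on chromosome 11 held 49 members over 1025.8 kb, from Krt222 (start at 99105399) to Krt42 (start at 100131185). It contained 27 Krt genes, almost all of them type I keratins, and 22 Krtap genes in the middle of the array. The cluster on chromosome 15 held 24 Krt genes over 658.1 kb, from Krt80 (start at 101200556) to Krt18 (start at 101858647). All are type II keratins apart from Krt18, a type I keratin. The cluster on chromosome 16 held 19 Krtap genes over 958.9 kb, from Krtap24-1 (start at 88612524) to Krtap11-1 (start at 89571428). The other 5 members were Krtap5-2, Krtap5-3, Krtap5-5 and Krtap5-4 within 127.5 kb on chromosome 7, and Krtap12-1 on chromosome 10 (start at 77183331). A state was available for all 97 members in each map.

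A smaller share of members than of all genes was in E in all 3 maps. In CH12 cells Krt genes alone were close to all genes (E 51.0% against 51.8%), and Krtap genes had 10.9%. Krt genes alone stayed below all genes in primary B cells (43.1% against 59.2%). In the map named for MEFs the difference turned when Krt genes alone were counted (86.3%, against 61.1% of all genes). With the chromosome 16 cluster left out, the E share of members there was close to that of all genes (62.8% of 78 members). In shLacZ CH12 cells, 31 members were E, 35 were M and 31 were L. These were 32.0% (95% interval 23.5 to 41.8%), 36.1% (27.2 to 46.0%) and 32.0% (23.5 to 41.8%) of members, where all autosomal protein-coding genes gave 51.8%, 26.9% and 21.3%. In WT primary B cells, 24 members were E, 54 were M and 19 were L. M thus held 55.7% of members (45.8 to 65.2%) against 28.2% of all genes. E held 24.7% (17.2 to 34.2%) against 59.2%, and L held 19.6% (12.9 to 28.6%) against 12.6%. The map named for MEFs had 49 members in E, 29 in M and 19 in L. E held 50.5% of members (40.7 to 60.3%) against 61.1% of all genes, M 29.9% (21.7 to 39.6%) against 27.9%, and L 19.6% (12.9 to 28.6%) against 11%. The share of L members rests on few domains. All 19 L members of the primary B cell map and of the map named for MEFs came from the chromosome 16 cluster, as did 19 of the 31 in CH12 cells.

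**Figure D1:**
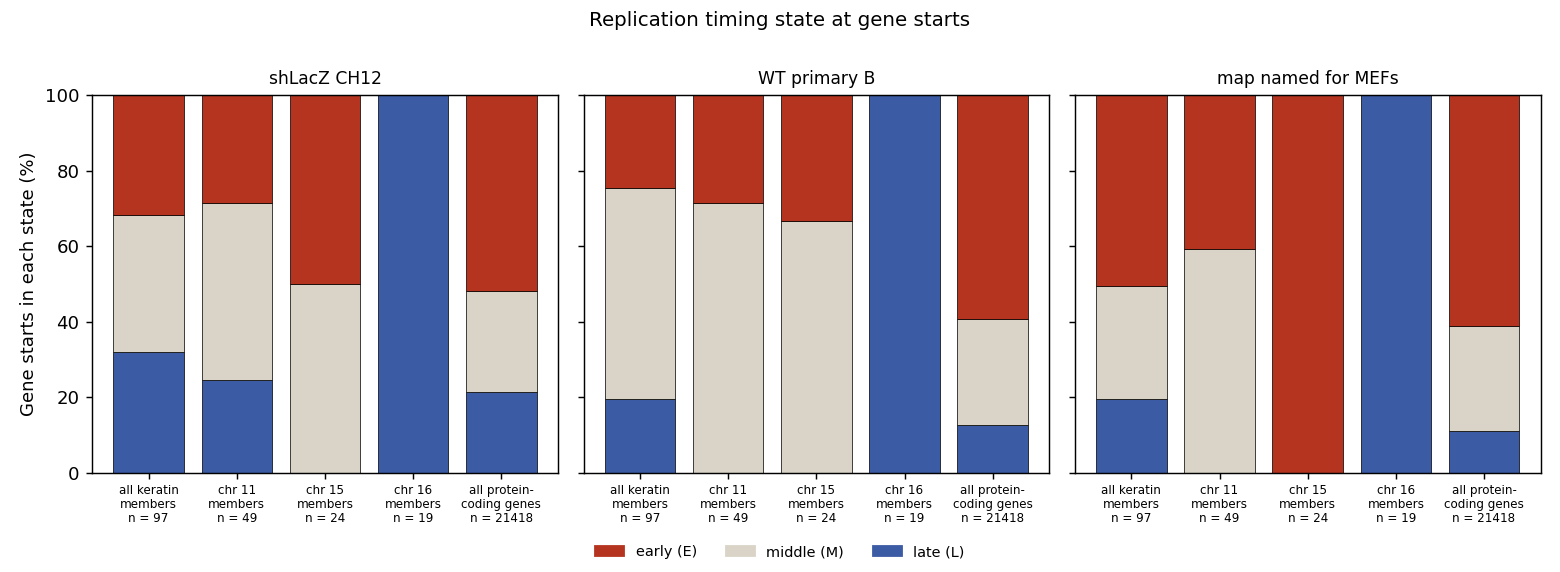
Share of gene starts in the E, M and L states (y axis, %) for all keratin members, for the members of each large cluster and for all autosomal protein-coding genes, with 1 panel per map. The chromosome 16 bar is wholly L in all 3 panels, while the chromosome 15 bar has no L in any and is wholly E in the map named for MEFs.

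The 3 clusters had different RT. The chromosome 11 cluster sat as a later-replicating stretch between long E domains. In shLacZ CH12 cells, 14 of its 49 members were E, 23 M and 12 L (28.6, 46.9 and 24.5%). All genes gave 51.8, 26.9 and 21.3% there, so the L share of the cluster was near that of all genes. In WT primary B cells 14 of the 49 were E, 35 M and 0 L (28.6, 71.4 and 0%, all genes 59.2, 28.2 and 12.6%). In the map named for MEFs 20 were E, 29 M and 0 L. The chromosome 15 cluster held no L member in any map, with 12 of 24 in E in CH12 cells, 8 in primary B cells and all 24 in the map named for MEFs. These E shares were 50.0, 33.3 and 100%, and that of CH12 cells was near the 51.8% of all genes. On chromosome 16 all 19 members were L in all 3 maps. The chromosome 7 genes were E in CH12 cells and in the map named for MEFs, whereas in primary B cells only Krtap5-4 was E and the other 3 were M. Krtap12-1 was E in all 3 maps.

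**Figure D2:**
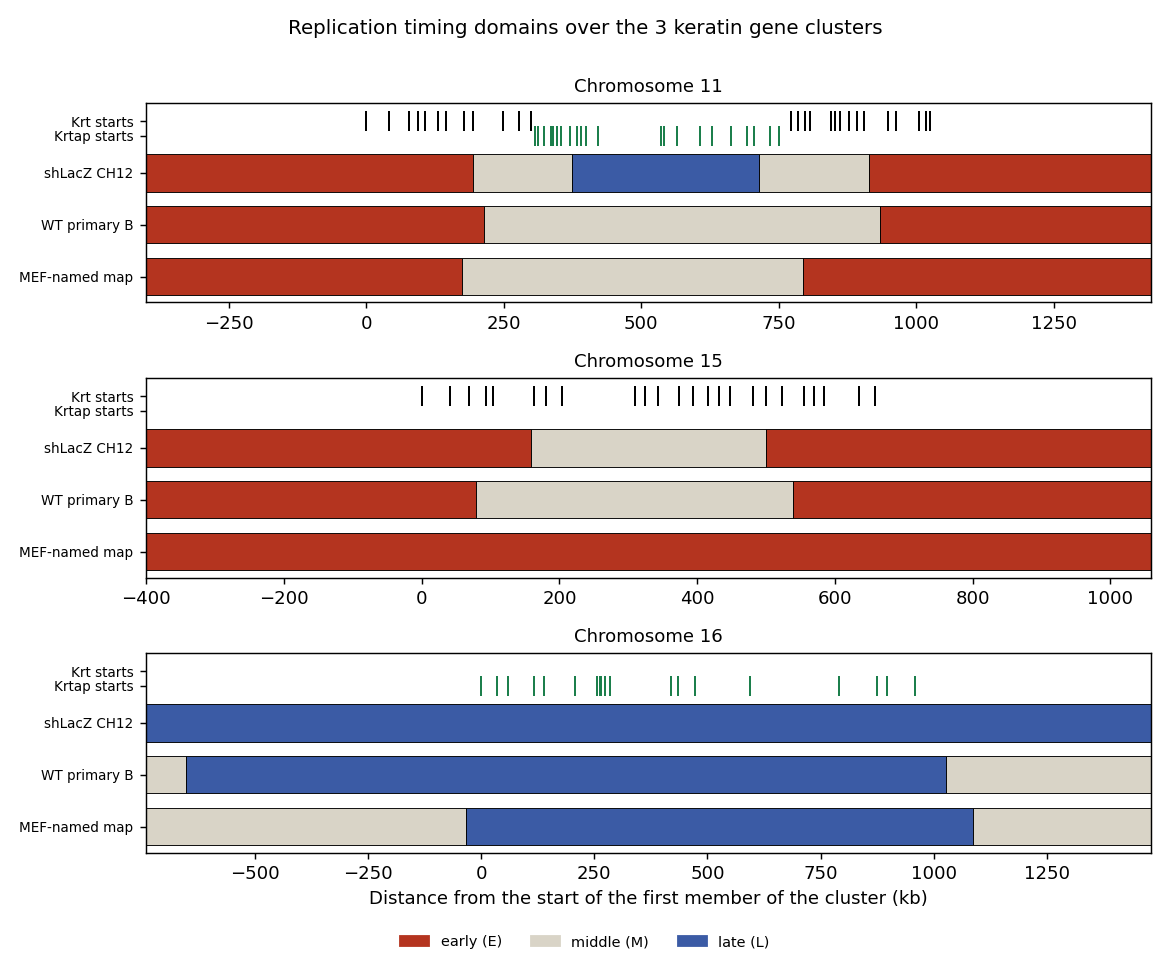
Replication timing domains over the clusters of chromosomes 11, 15 and 16, drawn to scale against the distance from the start of the first member (x axis, kb), with 1 bar per map coloured by state and ticks for Krt (black) and Krtap (green) gene starts. On chromosome 11 the L domain of 340 kb is seen in CH12 cells only, beneath the Krtap genes, and on chromosome 15 the M domain of the B cell maps is missing from the map named for MEFs.

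On chromosome 11, states in CH12 cells ran from E through M and L back to M and E along the array, and the limits between them fell within gene families as well as between them. Moving along the chromosome, the cluster began in the last part of an E domain of 2820 kb (chr11:96480001-99300000) with 9 members. They were Krt222, Krt24, Krt25, Krt26, Krt27, Krt28, Krt10, Krt12 and Krt20. Krt25 to Krt28 are type I keratins of the inner root sheath of the hair follicle, and Krt10 is the keratin of differentiating epidermal cells. Krt20, a keratin of gut epithelium, started 0.5 kb from the end of this domain, the smallest distance in the cluster. An M domain of 180 kb (chr11:99300001-99480000) followed with 11 members, Krt23, Krt39, Krt40 and 8 Krtap genes from Krtap3-3 to Krtap2-4. An L domain of 340 kb (chr11:99480001-99820000) then held 12 members, all of them Krtap genes and 8 of them of the Krtap4 family. These were Krtap4-1, Krtap4-2, Krtap4-7, Krtap4-6, Krtap4-8, Krtap4-9, Krtap4-13, Krtap4-16, Krtap9-1, Krtap31-1, Krtap31-2 and Krtap9-5. A second M domain of 200 kb (chr11:99820001-100020000) held 12 members, Krtap29-1, Krtap17-1, 7 keratins of the hair shaft from Krt33a to Krt36, and Krt13, Krt15 and Krt19. The last 5 members, Krt9, Krt14, Krt16, Krt17 and Krt42, lay in an E domain of 4620 kb (chr11:100020001-104640000).

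In WT primary B cells the same array was crossed by a single M domain of 720 kb (chr11:99320001-100040000) that held the 35 members from Krt23 to Krt19. The E domains on its sides measured 5620 and 4660 kb. The stretch that was not E was 720 kb long in CH12 cells as well, and both of its limits differed by 20 kb, a single bin, between these maps. The CH12 and primary B cell maps therefore placed the same 14 members in E, and differed in this cluster by the 12 Krtap genes that were L in CH12 cells and M in primary B cells. The stretch was 620 kb in the map named for MEFs (chr11:99280001-99900000) and all of it was M, with 29 members from Krt12 to Krt33b. Its start lay 20 kb before that of CH12 cells, so that Krt12 and Krt20 were M rather than E. Its end lay 120 kb before that of CH12 cells and 140 kb before that of primary B cells. This put Krt34, Krt31, Krt32, Krt35, Krt36, Krt13, Krt15 and Krt19 in E. Krt34 was the member closest to an edge in this map, at 2.9 kb.

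The L domain over the Krtap4 genes in CH12 cells was short for its kind. Of 690 autosomal L domains in this map 94 were shorter (13.6%), where the median was 1100 kb. The M domains of 180 and 200 kb beside it were longer than 6.2% and 10.1% of 1241 M domains, with a median of 380 kb. Stretches of at most 1 Mb between a pair of E domains numbered 199 in CH12 cells, and 23 of them held an L domain. In primary B cells 7 of 233 such stretches did, and in the map named for MEFs 1 of 210. The L domain was also dense in annotated gene starts. It was picked for its members, which lie in an array, so a high density is in part given by that choice. It held 42 protein-coding starts, the 12 members and 30 other genes, all of which carry only a Gm or Rik identifier. This gave 124.0 starts per Mb with members counted, where L bins of CH12 cells held 3.76 per Mb and E bins 18.9 per Mb over all autosomes with members left out. The density is that of the annotation used. Of the 34 other protein-coding genes in the whole span of the cluster, 16 had a symbol in RefSeq. No member of this cluster lay more than 194.6 kb from a domain edge in CH12 cells, less than the 300 kb over which the authors smoothed RT.

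On chromosome 15 the M stretch lay over the middle of the array in both B cell maps. In shLacZ CH12 cells it measured 340 kb (chr15:101360001-101700000) and held 12 members from Krt84 to Krt1. These comprised Krt84 and Krt82 of the hair shaft, Krt75 of the companion layer, and Krt71, Krt74 and Krt73 of the inner root sheath. They also included Krt6b, Krt6a, Krt5, Krt2 and Krt1 of the epidermis and mucosa, and Krt72-ps, which is annotated as protein-coding here despite its name. The 5 members before it, Krt80, Krt7, Krt83, Krt81 and Krt86, and the 7 after it, Krt77, Krt76, Krt4, Krt79, Krt78, Krt8 and Krt18, were E. In WT primary B cells the M stretch was longer at both ends, by 80 kb at its start and 40 kb at its end, and measured 460 kb (chr15:101280001-101740000). It took in the 12 members of the CH12 stretch together with Krt81, Krt86, Krt77 and Krt76. Krt77 started 0.1 kb inside its E domain in CH12 cells and 39.9 kb inside the M domain in primary B cells. No such stretch was present in the map named for MEFs. A single E domain of 7354.974 kb (chr15:96140001-103494974), which ran to the end of the chromosome, held all 24 members, and 99.1% of 567 autosomal E domains of that map were shorter.

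The chromosome 16 cluster lay inside 1 L domain in each map, and that domain differed in length. It measured 2300 kb in CH12 cells (chr16:87800001-90100000), 1680 kb in primary B cells (chr16:87960001-89640000) and 1120 kb in the map named for MEFs (chr16:88580001-89700000). Members are Krtap24-1, Krtap26-1, Krtap27-1, Krtap13-1, Krtap13, Krtap15 and Krtap11-1, with the Krtap16, Krtap6, Krtap7, Krtap8 and Krtap20 families, whose proteins are rich in glycine and tyrosine. The start of the domain lay 160 kb further along the chromosome in primary B cells than in CH12 cells, and its end 460 kb earlier. The start was 780 kb further along in the map named for MEFs than in CH12 cells. Krtap24-1 was then 32.5 kb from the edge, compared with 652.5 kb in primary B cells and 812.5 kb in CH12 cells. Krtap11-1, at the other end, was 68.6 kb from the edge in primary B cells, 128.6 kb in the map named for MEFs and 528.6 kb in CH12 cells. M domains lay on both sides in each map. The domain became shorter around the cluster, and no member changed state.

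Across the 3 maps together, 56 of the 97 members kept 1 state (57.7%, against 63.9% of all genes) and 41 changed. Those that kept it were 22 E members, 22.7% of members where the same pattern held for 45.8% of all genes, 19 L members (19.6% against 7.73%) and 15 M members (15.5% against 10.4%). The most frequent change was M in both B cell maps and E in the map named for MEFs, in 20 members, 12 on chromosome 15 and 8 on chromosome 11 (20.6% against 5.96% of all genes). Next came the 12 Krtap genes of chromosome 11 that were L, M and M (12.4% against 5.36%). In 7 members the order was E, M and E. These were Krt81, Krt86, Krt77 and Krt76 on chromosome 15 and Krtap5-2, Krtap5-3 and Krtap5-5 on chromosome 7 (7.22% against 1.5%). Krt12 and Krt20 were E, E and M (2.06% against 3.69%).

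Between CH12 and primary B cells, 12 members were earlier in primary B cells (12.4%), 78 were in the same state (80.4%) and 7 were later (7.22%). Over all genes these shares were 18.3%, 78.9% and 2.8%. Between CH12 cells and the map named for MEFs, 32 members were earlier in the latter (33.0%, all genes 23.4%), 63 were in the same state (64.9%, all genes 70.7%) and 2 were later (2.06%, all genes 5.87%). Set against primary B cells, 27 members were earlier in the map named for MEFs (27.8%, all genes 13.6%), 68 were the same (70.1%, all genes 76.0%) and 2 were later (2.06%, all genes 10.3%). Moves from L to E were seen in 0 members in any pair, where all genes gave 0.621%, 2.11% and 0.5%. Each of these counts comes from a few domains, since all 12 earlier members of the first pair share 1 L domain, and the later members lie beside domain limits that differ between the maps.

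On chromosome 7, the Krtap5 genes lay near the start of an E domain of 1100 kb in CH12 cells (chr7:149320001-150420000), Krtap5-2 at 41.9 kb from the edge. In primary B cells an M domain of 520 kb (chr7:148960001-149480000) reached over Krtap5-2, Krtap5-3 and Krtap5-5. Krtap5-4 started 9.4 kb beyond its end, in an E domain of 340 kb, and was the member closest to an edge in that map. An E domain of 4604.553 kb covered all 4 genes in the map named for MEFs.

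Keratins and keratin-associated genes differed in state in each map. Of the 51 Krt genes, 26 were E and 25 M in CH12 cells, and 22 were E and 29 M in primary B cells. In the map named for MEFs 44 were E and 7 M, and L held 0 in every map. The E shares of Krt genes were 51.0, 43.1 and 86.3%, where all genes gave 51.8, 59.2 and 61.1%. Their M shares were 49.0, 56.9 and 13.7%, where all genes gave 26.9, 28.2 and 27.9%. The E share in CH12 cells was thus close to that of all genes. Of the 46 Krtap genes, 5 were E, 10 M and 31 L in CH12 cells. In primary B cells 2 were E, 25 M and 19 L, and in the map named for MEFs 5 were E, 22 M and 19 L. Within chromosome 11, where both kinds lie side by side, 0 of 22 Krtap genes were E in any map. Of the 27 Krt genes there, 14 were E in each B cell map (51.9%) and 20 in the map named for MEFs (74.1%).

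By the tissue in which each keratin is known, the keratins of simple epithelia were alike in the 3 maps, with 4 of 6 in E and 2 in M. Krt7, Krt8 and Krt18 were E in all maps, and Krt23 was M in all. Krt19 was M in both B cell maps and E in the map named for MEFs, and Krt20 the reverse. Of 20 epidermal and mucosal keratins, 13 were E in CH12 cells, 11 in primary B cells and 19 in the map named for MEFs, where Krt12, a keratin of the cornea, was the 1 in M. Of 8 keratins of the inner root sheath and companion layer, 4 were E in each B cell map, all on chromosome 11, and 8 in the map named for MEFs. The 14 hair shaft keratins were E in 3 cases in CH12 cells (Krt81, Krt83 and Krt86), in 1 case in primary B cells (Krt83) and in 10 cases in the map named for MEFs. The 4 that were M there were Krt39, Krt40, Krt33a and Krt33b, which lie closest to the Krtap genes of chromosome 11. For comparison, E held 51.8, 59.2 and 61.1% of all genes in CH12 cells, primary B cells and the map named for MEFs.

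Partner keratins on different chromosomes did not always share a state. Krt8 and Krt18, partners in simple epithelia, are neighbours on chromosome 15 and were E in all maps. Krt14, the type I partner in basal epidermal cells, was E in all maps. Its type II partner Krt5 was M in CH12 and primary B cells and E in the map named for MEFs. Krt10 and Krt1, partners in differentiating epidermal cells, showed the same arrangement, with Krt10 in E throughout and Krt1 in M, M and E. Krt10 lay 49.3 kb from a domain edge in CH12 cells and Krt1 18.8 kb.

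**Figure D3:**
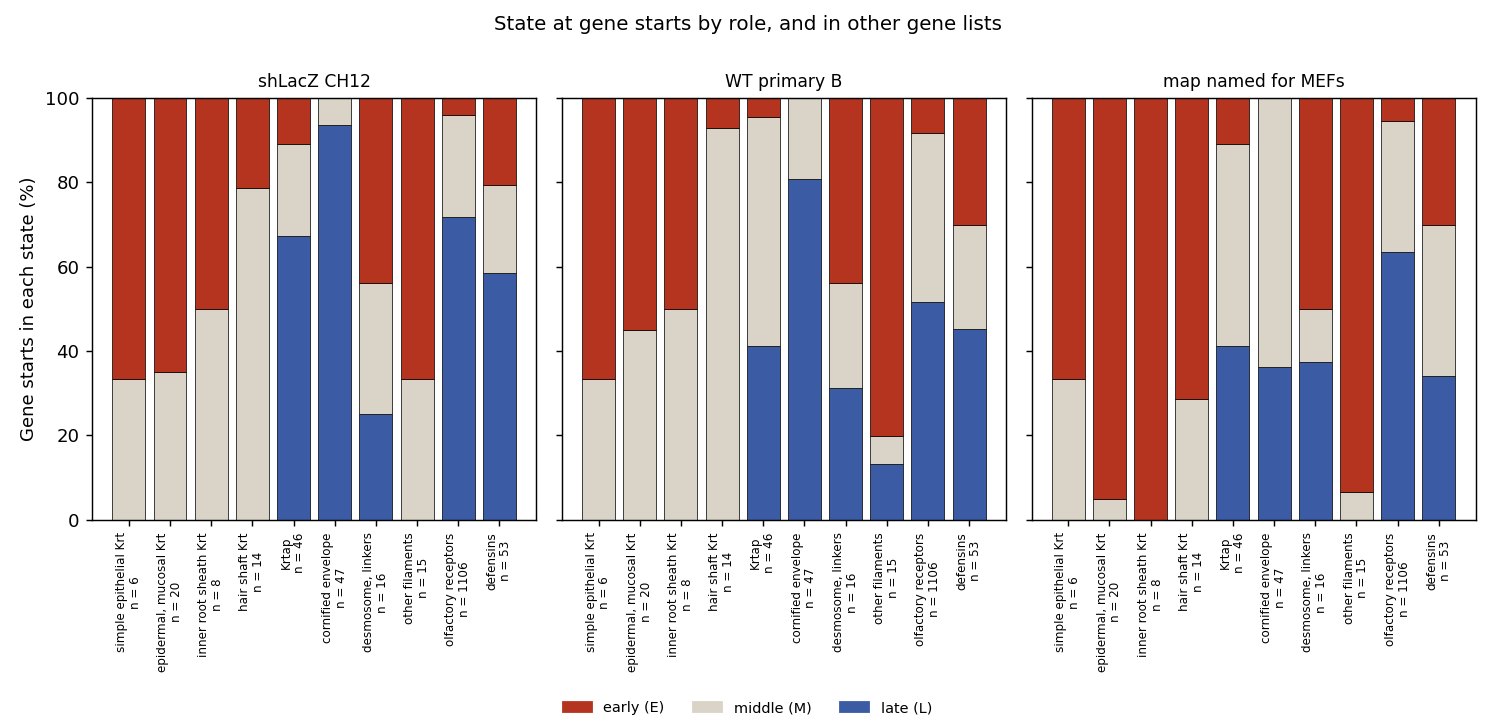
Share of gene starts in the E, M and L states (y axis, %) for keratin members by role and for other gene lists, with 1 panel per map and the number of annotation entries below each bar (the 47 for the cornified envelope count Flg 5 times). Krt bars hold no L in any panel, whereas the Krtap bar holds 67.4% L in CH12 cells and 41.3% in the other maps.

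Members lay closer to domain edges than genes in general. Edges are the limits between domains, and chromosome ends were not counted as edges. The median distance from a member start to the nearest edge was 82.9 kb in CH12 cells, 125.0 kb in primary B cells and 211.8 kb in the map named for MEFs, and over all genes 310.5, 320.9 and 411.8 kb. At least 300 kb from an edge were 20 members in CH12 cells (20.6%, all genes 51.2%), 21 in primary B cells (21.6%, all genes 52.3%) and 35 in the map named for MEFs (36.1%, all genes 59.9%). Distances followed the clusters. On chromosome 11 the medians were 54.5, 125.0 and 130.8 kb. On chromosome 15 they were 76.9 and 87.3 kb in the B cell maps and 5443.7 kb in the map named for MEFs, where the E domain runs to the end of the chromosome. With that end counted as an edge this median was 1911.2 kb. On chromosome 16 they were 951.9, 688.0 and 289.7 kb. The members farthest from an edge were Krtap8-2 in CH12 cells (1096.7 kb), Krtap15 in primary B cells (819.5 kb) and Krt18 in the map named for MEFs (5718.6 kb). With chromosome ends counted, Krt18 was 1636.3 kb from an edge and Krt80 was the farthest in that map, at 2294.4 kb, while the medians over all members did not move.

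Base composition differed between the clusters. The spans had a GC content of 44.2% on chromosome 11, 48.1% on chromosome 15, 38.9% on chromosome 16 and 46.1% on chromosome 7. The E, M and L states of CH12 cells had 45.8, 42.9 and 39.5% over all autosomal bins. Bins with a member start had medians of 47.3, 46.6 and 40.1% in the same states. On chromosome 11 the 5 CH12 domains had 48.0, 42.9, 41.8, 46.7 and 47.3% in their order along the chromosome, so that the lowest value was in the L domain. The E values there come mostly from sequence beyond the cluster. Bins with a member start on chromosome 11 had medians of 44.9% in E, 45.1% in M and 42.2% in L. On chromosome 15 the M domain of CH12 cells had 46.7%, and the E domains on its sides 48.1 and 46.2%. The M members of this cluster lay in bins with a median of 48.9%, above the 45.8% of E bins in general. The part of base composition in the states was not tested.

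Sequence that recurs in the genome was uneven along the clusters, and the authors kept only reads that aligned uniquely. Of the 50-base words of each span, 8.29% recurred elsewhere in the genome on chromosome 11, 5.84% on chromosome 15, 10.82% on chromosome 16 and 15.09% on chromosome 7. A background of 239 evenly spaced autosomal bins gave 10.56%, with a bin median of 3.88%. In the L domain of chromosome 11 in CH12 cells the share was 18.54%, compared with 4.18 and 2.21% in the M domains beside it. A bin there reached 72.33%, and member bins of the domain ranged from 3.05 to 56.24%. The same bins were M in the other maps. The part of recurring sequence in the L call was not tested.

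**Figure D4:**
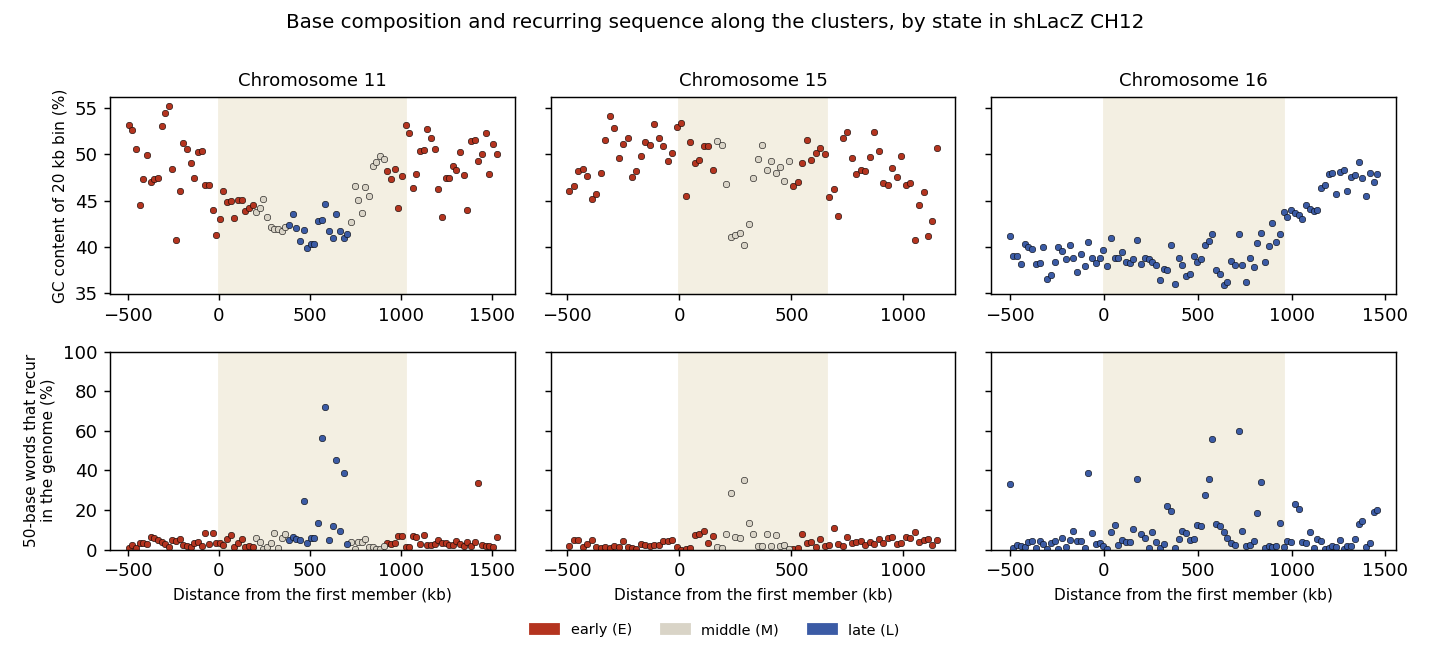
GC content (upper row, %) and share of 50-base words that recur in the genome (lower row, %) of 20 kb bins along the 3 clusters, against the distance from the first member (x axis, kb). Points are coloured by the state in shLacZ CH12 cells and shading marks the span of the members; the bins with the highest recurring share on chromosome 11, up to 72.33%, lie in the L domain.

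The 250 bases before each gene start were read from the mm9 genome to see what members share beyond their symbols. The letters TATAAA were present on either strand in 60 of 97 members (61.9%), where 12.4% of the same windows of all 21418 genes held them. On the gene's own strand these shares were 59.8 and 8.37%. Krtap genes held the letters in 37 of 46 windows (80.4%). By cluster the share was 79.6% on chromosome 11, 20.8% on chromosome 15 and 68.4% on chromosome 16. Windows of members had a median of 3 CG dinucleotides and a GC content of 44.8%, and those of all genes 9 and 54.4%. A match is a run of letters and was not tested as a site of any factor.

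Windows of 4 genes are shown, chosen after their states were seen, to set side by side a gene that was E in all maps, one that was L in all, and examples of the patterns that changed most often. All 4 genes are on the minus strand, the sequences are printed 5′ to 3′ in the direction of the gene and end at the base before its annotated start, and capitals mark CG dinucleotides and TATAAA on the gene's strand. Krtap4-8 (chr11:99642019-99642268) was L in CH12 cells and M in the other maps. Krtap11-1 (chr16:89571429-89571678) was L in all maps, Krt14 (chr11:100068863-100069112) E in all maps, and Krt5 (chr15:101543323-101543572) M, M and E.
Krtap4-8: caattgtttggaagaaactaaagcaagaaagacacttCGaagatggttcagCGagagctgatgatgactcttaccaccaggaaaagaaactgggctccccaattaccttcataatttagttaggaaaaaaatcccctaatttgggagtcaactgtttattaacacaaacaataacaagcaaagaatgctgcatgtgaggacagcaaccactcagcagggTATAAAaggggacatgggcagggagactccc
Krtap11-1: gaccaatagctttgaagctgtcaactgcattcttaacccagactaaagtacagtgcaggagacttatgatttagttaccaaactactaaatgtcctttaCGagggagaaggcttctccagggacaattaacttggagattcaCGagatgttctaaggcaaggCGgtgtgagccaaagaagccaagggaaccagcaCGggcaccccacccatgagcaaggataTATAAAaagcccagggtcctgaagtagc
Krt14: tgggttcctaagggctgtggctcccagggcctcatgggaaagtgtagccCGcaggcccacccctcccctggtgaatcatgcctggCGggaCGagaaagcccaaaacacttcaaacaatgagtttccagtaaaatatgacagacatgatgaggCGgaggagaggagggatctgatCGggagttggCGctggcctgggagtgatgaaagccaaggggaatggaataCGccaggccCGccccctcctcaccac
Krt5: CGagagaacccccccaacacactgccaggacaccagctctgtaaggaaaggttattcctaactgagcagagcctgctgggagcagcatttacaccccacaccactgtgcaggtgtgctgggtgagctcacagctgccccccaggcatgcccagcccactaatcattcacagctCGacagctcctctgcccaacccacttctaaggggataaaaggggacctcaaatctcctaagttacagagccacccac
TATAAA began 31 bases before the start in Krtap4-8 and 28 bases before it in Krtap11-1, and was not in the windows of Krt14 and Krt5. Krt14 had 8 CG dinucleotides, Krtap11-1 had 4, and Krtap4-8 and Krt5 had 2 each. These windows do not stand for their states. Krt8, also E in all maps, had 3 in its window, which is not printed. Members that were E in CH12 cells had a median of 4 (range 0 to 21), and those that were L a median of 1 (range 0 to 6). All 31 of these L members were Krtap genes, and the 46 Krtap windows had a median of 1. State and gene family can therefore not be told apart here. Medians of E, M and L members were 5, 2 and 2 in primary B cells and 3, 2 and 2 in the map named for MEFs.

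Other genes of skin and hair were spread over all states. The cornified envelope genes, which lie together on chromosome 3 and encode the proteins crosslinked at the surface of dead epidermal cells, had 47 entries in the annotation for 43 genes, since Flg has 5. With each gene counted once, 0 were E in any map. In CH12 cells 3 were M and 40 L, in primary B cells 5 were M and 38 L, and in the map named for MEFs 26 were M and 17 L. Lor, which encodes the main protein of this envelope, was L in all 3. The map named for MEFs placed 23 of the 43 genes in an earlier state than CH12 cells did (53.5%, all genes 23.4%), and 0 of the 19 members on chromosome 16. Of 16 genes for desmosomes and their linkers, which anchor keratin filaments, 7 were E in each B cell map and 8 in the map named for MEFs. L held 4 of them in CH12 cells, 5 in primary B cells and 6 in the map named for MEFs (25.0, 31.2 and 37.5%). The L share in CH12 cells was near that of all genes. Plec, which links filaments to other structures, was E in all. Of 15 genes for other intermediate filaments, 10 were E in CH12 cells, 12 in primary B cells and 14 in the map named for MEFs (66.7, 80.0 and 93.3%). In L there were 0, 2 and 0 of these genes. Vim, the filament of mesenchymal cells and lymphocytes, was M in CH12 cells and E in the other maps. Of 12 crosslinking enzymes and regulators, 6, 7 and 9 were E (50.0, 58.3 and 75.0%), and 1, 0 and 0 were L. In both B cell maps these E shares were near those of all genes. Hoxc13 and Foxn1, regulators of hair keratin genes, were E in all maps, and Trp63, the regulator of stratified epithelium, was M in all.

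Other clustered families gave a further comparison. Of 1106 olfactory receptor genes, 794 were L in CH12 cells (71.8%), 572 in primary B cells (51.7%) and 702 in the map named for MEFs (63.5%). Of 53 defensin genes, 31, 24 and 18 were L (58.5, 45.3 and 34.0%). L held 21.3, 12.6 and 11% of all genes in these maps. E held 43, 91 and 59 olfactory receptor genes (3.89, 8.23 and 5.33%) and 11, 16 and 16 defensin genes (20.8, 30.2 and 30.2%). Over all genes E held 51.8, 59.2 and 61.1%. In the map named for MEFs, 159 olfactory receptor genes (14.4%) and 18 defensin genes (34.0%) were earlier than in CH12 cells. The same held for 32 of the 97 keratin members (33.0%) and for 23.4% of all genes.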

How the data were processed

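According to the study's methods and the submitters' processing notes, reads were trimmed (Trim Galore 0.6.5), aligned to mm9 (BWA 0.7.17) and filtered for unique alignments (SAMtools 1.9). After merging of replicates and removal of duplicates, RT was taken as the log2 of early over late reads per 20 kb bin (deepTools). Loess over 300 kb smoothed it, and a hidden Markov model called 3 states. A deposited map lists domain starts, ends and state numbers without RT values, so the RT that separates states is unknown here and may differ between maps, and limits are blurred by the smoothing.

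In the CH12 and primary B cell maps state 2 was taken as E, 1 as M and 0 as L, and in the map named for MEFs 0 as E, 2 as M and 1 as L. With these names, E touched L in 0 places in each map, and gene density and GC content, with members left out of the density, fell from E to M to L. The last domains of all 20 chromosomes ended at the lengths of the NCBIM37 (mm9) reference. Genes were taken from GENCODE M1. Of 104 genes with a member symbol, 7 were of types other than protein-coding and were left out. In the cluster spans 3 further genes carry keratin symbols in RefSeq (GRCm38.p6), and the M1 symbols were kept. Recurring words were 50 bases long and compared over the whole genome and both strands, with every 500th full bin as background.

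Members and gene lists were chosen with earlier results of these data known. Named genes were the ends of each cluster, members off their cluster's most common state, members outside the 3 clusters, those closest to and farthest from an edge, known partner pairs, and 6 genes of other lists. Planned protein sequences were not used here. Alternatives to gene placement, unit of counting, edges, member rule, short domains and cluster limits were computed. Leaving out the chromosome 16 or 11 cluster, and joining short domains in the cluster counts, were chosen after seeing the data, as were counting gene symbols once in the other lists and counting chromosome ends by cluster. Functions were tested on simulated maps. Computations were run in Python 3.11.15 with numpy 2.4.6 and pandas 2.3.3, and figures were drawn with matplotlib 3.10.9.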

Additional observations from a re-analysis of the deposited data

How the results depend on the processing

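No paired analysis was possible because each condition has a single merged map, and for the same reason no replicate could be left out. Each of 51 results was recomputed under its alternatives, 321 values in all, of which 256 stayed within the counting interval of the main share or within 1.5 times the main count, and 65 did not. None of the values recomputed with genes placed by midpoint lay beyond these bounds. The same held with domains under 100 kb joined (42 values) and with cluster gaps of 250 kb or 2 Mb (27 values each). Those settings could not move a value and are no check of the results. The shortest domain that covered a member was 180 kb. Members of a chromosome already formed a single cluster, with gaps between neighbours of at most 197.9 kb. Placing genes by the state over most of their bases and counting all gene types were run for the member shares only, and moved none of those.

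With members at least 100 kb from an edge, M was 12.5% and L 57.5% in CH12 cells, and E 11.9% and L 30.5% in primary B cells. At 300 kb or more, E, M and L were 5, 0 and 95% in CH12 cells and 4.76, 23.8 and 71.4% in primary B cells, and E and M were 82.9 and 0% in the map named for MEFs. This limit removes short domains whatever their state. In CH12 cells the M domains with members and the L domain of chromosome 11 measured at most 340 kb. No start in them can lie 300 kb from both edges, so the 0% for M in CH12 cells was fixed by domain length. In the map named for MEFs the only M domain with members measured 620 kb. Only starts near its middle can lie 300 kb from both edges, so the 0% for M there is almost fixed as well. Of the 29 E members left in that map, 24 were those of chromosome 15, which share 1 domain. On chromosome 11 at 100 kb or more, E, M and L were 60.0, 0 and 40.0% of 10 members in CH12 cells. The M domains there measured 180 and 200 kb. They are too short for a start to lie more than 100 kb from both edges, so this 0% also follows from domain length. E and M were 17.2 and 82.8% in primary B cells and 27.6 and 72.4% in the map named for MEFs. On chromosome 15 they were 10 and 90% in primary B cells. Of members at least 100 kb from edges in both maps of a pair, 4 were earlier and 0 later in primary B than in CH12 cells. In the map named for MEFs, 9 were earlier and 0 later than in CH12 cells, and 10 earlier and 0 later than in primary B cells.

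With Krt genes only, E, M and L were 51.0, 49.0 and 0% in CH12 cells, E and L 43.1 and 0% in primary B cells, and E, M and L 86.3, 13.7 and 0% in the map named for MEFs. With Krtap genes only, E, M and L were 10.9, 21.7 and 67.4% in CH12 cells and 10.9, 47.8 and 41.3% in the map named for MEFs, and E and L were 4.35 and 41.3% in primary B cells. Without the chromosome 16 cluster, L was 15.4% in CH12 cells, M 69.2% and L 0% in primary B cells, and E 62.8% and L 0% in the map named for MEFs. Without the chromosome 11 cluster, 0 members were earlier in primary B than in CH12 cells. In the map named for MEFs, 12 members were then earlier and 0 later than in CH12 cells, and 0 later than in primary B cells.

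With all 83 protein-coding genes of the chromosome 11 span, E, M and L were 16.9, 32.5 and 50.6% in CH12 cells. E and M were 16.9 and 83.1% in primary B cells and 24.1 and 75.9% in the map named for MEFs. With each bin counted once, 1 bin was later in the map named for MEFs than in CH12 cells, and 1 than in primary B cells. Over the members' chromosomes only, the background of genes earlier in primary B than in CH12 cells was 15.8% and of genes later 1.95%. Genes earlier in the map named for MEFs made up 19.6% against CH12 cells and 11.1% against primary B cells.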
